A study of Homo sapiens with 4 samples.

Results

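The YAP and TEAD target genes described here are 10 genes picked by symbol from the 58735 rows of each expression file: CYR61, CTGF, THBS1, TGFB2, AXL, F3, AMOTL1, AMOTL2, LATS2 and ANKRD1. The files carry the older symbols CYR61 and CTGF for the genes now called CCN1 and CCN2. All 10 had at least 1 FPKM, a level scaled for gene length and library depth, in at least 1 library, as did 13678 genes in all. All 10 were also among the 6760 genes whose mean over the libraries was 5 FPKM or more, called the well-expressed genes below.

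YAP and its paralog TAZ are transcriptional coactivators that cannot bind DNA themselves and act through the TEAD transcription factors. Of the Hippo kinases MST and LATS, LATS phosphorylates YAP and TAZ and keeps them in the cytoplasm. Cell spreading and stiff substrates let them enter the nucleus. In uveal melanoma, activating mutations of the G proteins encoded by GNAQ and GNA11 are common and are known to signal to YAP. The target genes encode secreted matricellular proteins and a cytokine, surface receptors, a nuclear cofactor, and proteins that feed back on YAP.

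The samples were 4 RNA libraries of OMM2.3, a human uveal melanoma cell line, 1 each from cells given CCCP, DHA, CCCP together with DHA (the combination), and control cells. CCCP is a protonophore that collapses the mitochondrial membrane potential. DHA is not written out in the labels, which also do not state the doses, the times and what control cells received. All groups are the same line, grown in the same serum-containing medium.

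Each library held between 16900411 and 18937286 reads over genes, and with 1 library per group there was no spread between replicates. Intervals given with fold differences are exact 95% intervals for counting error only. They take reads as independent molecules, which reads copied by PCR are not, so they can be too narrow. In bulk RNA, fewer cells expressing a gene and less RNA per cell cannot be told apart. MITF was at 8.89 FPKM with CCCP, 7.35 with DHA and 5.01 with both, against 8.81 in control, and PMEL at 2.55, 1.31 and 0.97, against 1.501 in control. Of 12 melanocyte lineage markers only MITF and PMEL reached 1 FPKM in any library, and TYR, OCA2, PAX3, EDNRB and KIT had 0 reads in every library, so 10 of the 12 defining markers of the labelled lineage stayed below 1 FPKM. No endothelial marker of 6 and no leukocyte marker of 6 exceeded 0.164 FPKM. Of 10 fibroblast markers 4 were measured (FBN1, FAP, COL1A1 and PDGFRB), and LUM and THY1 had 0 reads. COL1A1 was at 2.54 FPKM with CCCP, 2.09 with DHA and 0.42 with both, against 8.86 in control, and FAP at 7.86, 10.7 and 4.54, against 15.5 in control. PDGFRB and FBN1 had log2 ratios of -0.93 and -0.84 with both. The summed level of the fibroblast list was 49.8 FPKM with CCCP, 47.4 with DHA and 31.4 with both, against 73.0 in control, and its part in the results below was not tested.

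The promoters of 3 target genes are shown because each holds the TEAD motif, while ANKRD1 was higher and CTGF and THBS1 were lower than control in every treated library. The sequences are RefSeq windows on GRCh38.p14, from 250 bases before to 50 bases after the transcription start, and capitals mark GGAATG, the core of the TEAD motif. CTGF lies at chr6:131951323-131951622 on the minus strand, ANKRD1 at chr10:90921038-90921337 on the minus strand, and THBS1 at chr15:39580829-39581128 on the plus strand.
CTGF: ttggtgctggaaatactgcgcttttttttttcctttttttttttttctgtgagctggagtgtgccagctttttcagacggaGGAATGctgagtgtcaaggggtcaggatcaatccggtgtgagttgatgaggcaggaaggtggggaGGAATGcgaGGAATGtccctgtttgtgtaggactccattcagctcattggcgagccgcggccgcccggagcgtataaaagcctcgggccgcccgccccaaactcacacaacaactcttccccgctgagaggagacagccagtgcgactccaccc
ANKRD1: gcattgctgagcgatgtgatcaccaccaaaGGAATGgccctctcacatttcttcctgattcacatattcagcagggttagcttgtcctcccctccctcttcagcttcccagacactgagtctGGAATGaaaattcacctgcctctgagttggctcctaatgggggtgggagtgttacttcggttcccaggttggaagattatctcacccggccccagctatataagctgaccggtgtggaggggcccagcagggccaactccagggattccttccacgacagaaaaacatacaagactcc
THBS1: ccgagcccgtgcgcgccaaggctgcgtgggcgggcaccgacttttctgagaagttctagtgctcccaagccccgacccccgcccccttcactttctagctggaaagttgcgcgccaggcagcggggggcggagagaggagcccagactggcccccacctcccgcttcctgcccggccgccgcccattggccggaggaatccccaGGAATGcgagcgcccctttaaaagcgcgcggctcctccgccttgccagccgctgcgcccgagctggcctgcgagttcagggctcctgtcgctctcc

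RefSeq windows were matched for 9 of the 10 genes, in 11 windows because AMOTL2 and AXL have 2 starts each. CYR61 had no entry. The AMOTL1 window, chr11:94768106-94768405 on the plus strand, lies inside the gene as measured here, which starts at base 94706431. It does not cover the first base of that gene. GGAATG was searched on both strands and was found in 7 of the 11 windows, against 14% of all 35116 windows of the same length. The genes were picked as YAP and TEAD targets, so this share is not independent of their choice. CTGF held 3 matches, at 169, 104 and 95 bases upstream of the start, where 0.128% of all windows held 3 or more. ANKRD1 held 2, at 220 and 128 bases upstream, THBS1 held 1 at 46 bases upstream, and AMOTL2, LATS2, AXL and TGFB2 held 1 each. The pattern TGANTCA, with any base at N, is a loose form of the motif of the AP-1 factors, which share many enhancers with TEAD. It was found in ANKRD1 once (TGATTCA) and in F3 at 2 places (TGAATCA and TGAGTCA), against 7.71% of all windows. The AP-1 and GGAATG matches did not overlap. The CArG box, the site of serum response factor, was in no window of these genes and in 1.29% of all windows. A match describes the letters in the window and is not a measured binding site.

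**Figure D1:**
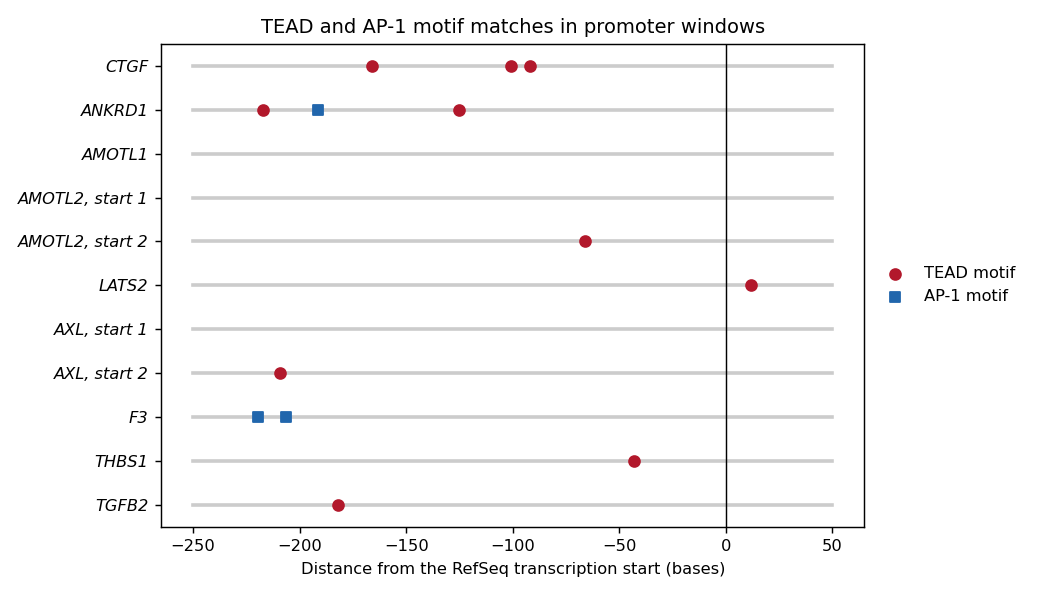
Positions of GGAATG (TEAD, red circles) and TGANTCA (AP-1, blue squares) matches in the 11 promoter windows of 9 target genes, plotted as distance in bases from the RefSeq transcription start. CTGF has 3 TEAD matches and ANKRD1 has 2, whereas the window of AMOTL1 has no match to either motif. The AMOTL1 window lies inside the measured gene, away from its first base.

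Among the secreted proteins, CYR61 was higher and its paralog CTGF lower with each treatment, and THBS1 was much lower. CYR61, a matricellular protein that binds integrins (ENSG00000142871, chromosome 1, 85580761 to 85583962 on GRCh38, plus strand), was at 1386 FPKM with CCCP, 760 with DHA and 1249 with both, against 548 in control. The library with CCCP alone was highest, and all 3 treated libraries were above control. CYR61 was thus 2.53-fold (2.49 to 2.57) higher with CCCP, 1.39-fold (1.37 to 1.41) with DHA and 2.28-fold (2.25 to 2.31) with both. Its log2 ratio with CCCP exceeded that of 99.7% of the well-expressed genes. By level it ranked 20th of the 13678 genes with CCCP and 39th in control.

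CTGF, which binds growth factors and matrix proteins (ENSG00000118523, chromosome 6, 131948176 to 131951373, minus strand), was at 241 FPKM with CCCP, 260 with DHA and 198 with both, against 281 in control. The order was opposite to that of ANKRD1, with control highest and the combination lowest. CTGF was 1.17-fold (1.13 to 1.2) lower with CCCP, 1.08-fold (1.05 to 1.11) lower with DHA and 1.42-fold (1.38 to 1.46) lower with both. The level of CYR61 over that of CTGF was 5.75 (5.63 to 5.88) with CCCP, 2.93 (2.86 to 2.99) with DHA and 6.32 (6.17 to 6.47) with both, against 1.95 (1.91 to 1.99) in control. The ratio of the paralogs was higher in each treated library than in control.

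THBS1 encodes thrombospondin 1, a matrix glycoprotein that activates latent TGF-beta (ENSG00000137801, chromosome 15, 39581079 to 39599466, plus strand). It was at 339 FPKM with CCCP, 513 with DHA and 145 with both, against 706 in control, where it ranked 32nd of the 13678 genes by level. Control was highest and the combination lowest. THBS1 was 2.08-fold (2.06 to 2.11) lower with CCCP, 1.37-fold (1.36 to 1.39) lower with DHA and 4.86-fold (4.79 to 4.92) lower with both. Of the well-expressed genes 0.207% had a lower log2 ratio with both compounds. The same-strand gene AC037198.1 in an intron of THBS1, whose reads cannot be told apart from unspliced THBS1 RNA, was at 7.19 FPKM with CCCP, 15.4 with DHA and 3.16 with both, against 19.6 in control.

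TGFB2, a cytokine of the TGF-beta family (ENSG00000092969, chromosome 1, 218346235 to 218444619, plus strand), was at 32.6 FPKM with CCCP, 17.8 with DHA and 19.2 with both, against 15.3 in control. The library with CCCP alone stood above the other three. TGFB2 was 2.13-fold (2.0 to 2.27) higher with CCCP, 1.16-fold (1.08 to 1.25) with DHA and 1.26-fold (1.17 to 1.35) with both. Against CCCP alone, the combination was 1.69-fold (1.6 to 1.8) lower.

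The surface proteins AXL and F3 differed less between libraries. AXL, a receptor tyrosine kinase (ENSG00000167601, chromosome 19, 41219203 to 41261766, plus strand), was at 498 FPKM with CCCP, 422 with DHA and 533 with both, against 377 in control. It was 1.32-fold (1.3 to 1.34) higher with CCCP, 1.12-fold (1.1 to 1.14) with DHA and 1.41-fold (1.4 to 1.43) with both. F3, tissue factor, which starts coagulation (ENSG00000117525, chromosome 1, 94529225 to 94541800, minus strand), was at 466 FPKM with CCCP, 362 with DHA and 374 with both, against 354 in control. It was 1.32-fold (1.29 to 1.34) higher with CCCP, 1.02-fold (1.0 to 1.04) with DHA and 1.06-fold (1.03 to 1.08) with both, so the library with CCCP alone stood above the rest.

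Among the feedback proteins, AMOTL2 and LATS2 were highest with CCCP alone and AMOTL1 was lower. AMOTL2, an angiomotin that holds YAP at junctions and in the cytoplasm (ENSG00000114019, chromosome 3, 134355874 to 134375479, minus strand), was at 75.7 FPKM with CCCP, 61.0 with DHA and 55.1 with both, against 46.0 in control. It was 1.64-fold (1.59 to 1.7) higher with CCCP, 1.32-fold (1.28 to 1.37) with DHA and 1.2-fold (1.15 to 1.24) with both. MIR6827, a microRNA gene in the span of AMOTL2 on the same strand, had 17 reads with CCCP, 5 with DHA and 6 with both, against 5 in control. It shares no exonic bases with AMOTL2, and its reads cannot be told apart from those of unspliced AMOTL2 RNA.

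AMOTL1, its paralog (ENSG00000166025, chromosome 11, 94706431 to 94876753, plus strand), was at 10.3 FPKM with CCCP, 11.4 with DHA and 8.55 with both, against 12.1 in control. Control was highest and the combination lowest, the order seen in CTGF and THBS1. It was 1.18-fold (1.1 to 1.25) lower with CCCP and 1.41-fold (1.32 to 1.51) lower with both, and with DHA the interval included 1 (1.06-fold lower, 0.998 to 1.13). The level of AMOTL2 over that of AMOTL1 was 7.37 (6.99 to 7.77) with CCCP, 5.35 (5.08 to 5.63) with DHA and 6.45 (6.09 to 6.84) with both, against 3.81 (3.63 to 4.0) in control.

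LATS2, a kinase that phosphorylates YAP and TAZ (ENSG00000150457, chromosome 13, 20973032 to 21061547, minus strand), was at 12.4 FPKM with CCCP, 9.07 with DHA and 9.84 with both, against 8.11 in control. It had the lowest level of the 10 genes in the control library, on 881 reads. LATS2 was 1.53-fold (1.4 to 1.67) higher with CCCP, 1.12-fold (1.02 to 1.23) with DHA and 1.21-fold (1.1 to 1.33) with both.

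ANKRD1, a nuclear and sarcomeric ankyrin repeat protein (ENSG00000148677, chromosome 10, 90912096 to 90921276, minus strand), was at 62.0 FPKM with CCCP, 49.5 with DHA and 133 with both, against 26.3 in control. Each compound alone was above control and the combination was above either. ANKRD1 was 2.36-fold (2.19 to 2.55) higher with CCCP, 1.88-fold (1.74 to 2.04) with DHA and 5.05-fold (4.72 to 5.41) with both. Adding DHA to CCCP gave a 2.14-fold (2.03 to 2.26) and adding CCCP to DHA a 2.68-fold (2.53 to 2.84) higher level. Its rank by level was 224th of 13678 genes with both compounds and 1420th in control.

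**Figure D2:**
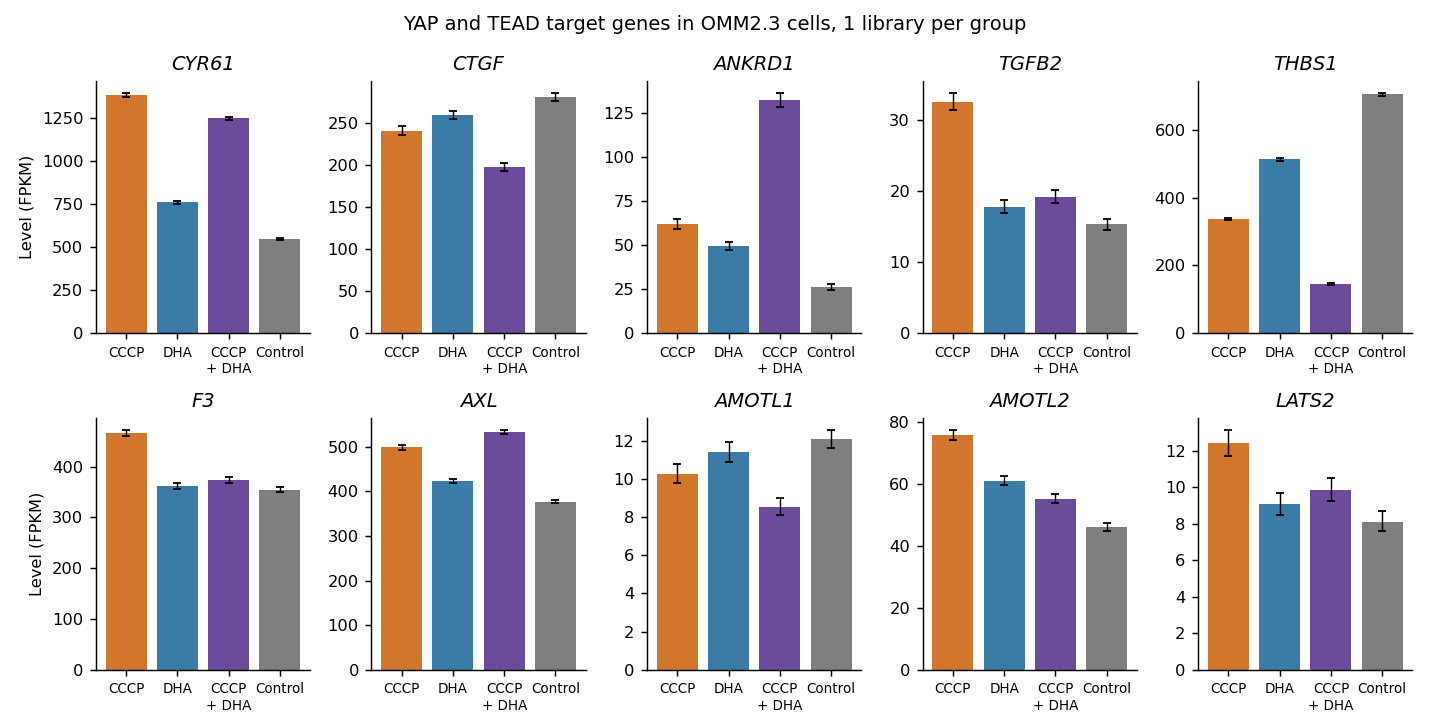
Levels of the 10 target genes in FPKM (bars, each axis from 0) in the libraries with CCCP, DHA, CCCP + DHA and control, 1 library per group, with exact 95% counting intervals of the reads as error bars. CYR61 and TGFB2 are highest with CCCP alone (1386 and 32.6 FPKM), ANKRD1 is highest with both (133 FPKM), and CTGF, AMOTL1 and THBS1 are highest in control.

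By the order of the libraries the 10 genes thus fell into 3 patterns, a description made after the values were seen. CYR61, TGFB2, F3, AMOTL2 and LATS2 were highest with CCCP alone. ANKRD1 and AXL were highest with both compounds. CTGF, THBS1 and AMOTL1 were highest in control and lowest with both. Over the 3 log2 ratios to control, CTGF and AMOTL1 lay closest of the 45 pairs, at a Euclidean distance of 0.04.

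CCCP against control asked how the targets stood after the uncoupler. Genes were counted where FPKM + 0.5 differed by 2-fold or more. With CCCP, 3 of the 10 genes were higher (CYR61, ANKRD1 and TGFB2) and 1 was lower (THBS1). Over all 13678 genes 3.21% were higher and 2.32% lower, and over the 6760 well-expressed genes 0.888% and 0.68%. The target genes were chosen with earlier results of these data known, so this and the later counts are not independent of the choice. None of the 10 was 4-fold higher or lower, where 0.541% and 0.336% of all genes were. Scaled to equal FPKM totals, TGFB2 had a log2 ratio of 0.957 with CCCP and no longer passed 2-fold, which left 2 genes higher and 1 lower. The members' median log2 ratio was 0.49, with all genes at 0.00, and 7 of the 10 lay above 0.

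DHA against control gave smaller ratios. No target gene was 2-fold higher or lower, where 2.0% and 1.86% of all genes and 0.74% and 0.0888% of the well-expressed genes were. ANKRD1 alone passed 1.5-fold, where 4.43% of all genes were higher and 4.15% lower, and its log2 ratio of 0.90 exceeded that of 99.0% of the well-expressed genes. THBS1 was at -0.46, and 1.61% of those genes were lower. The members' median was 0.16, with all genes at 0.00.

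CCCP and DHA together against control gave the widest range, from -2.28 in THBS1 to 2.31 in ANKRD1 on the log2 scale. CYR61 and ANKRD1 were at least 2-fold higher and THBS1 lower, against 4.52% and 5.44% of all genes, and 2.88% and 4.42% of the well-expressed genes. The members' median was 0.26, with all genes at 0.01.

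**Figure D3:**
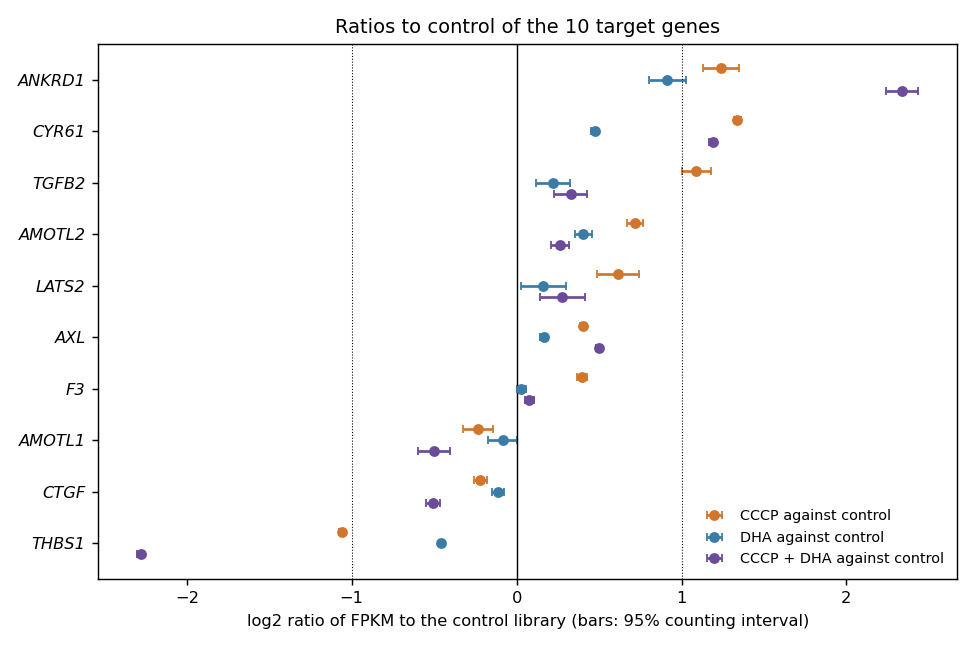
Log2 ratio of FPKM to the control library for each target gene with CCCP, DHA and CCCP + DHA, 1 library each. Bars are 95% counting intervals, and the dotted lines mark a 2-fold ratio. With both compounds ANKRD1 is 5.05-fold higher and THBS1 4.86-fold lower, while F3 is 1.06-fold and AMOTL2 1.2-fold higher.

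The combination was also set against each single compound. Against CCCP, ANKRD1 was at least 2-fold higher and THBS1 lower, where 3.46% and 4.94% of all genes and 1.76% and 2.93% of the well-expressed genes were, and 8 of the 10 genes lay below 0 with a median log2 ratio of -0.30. CYR61 was 1.11-fold (1.1 to 1.12) lower, AMOTL2 1.37-fold (1.33 to 1.42) and LATS2 1.26-fold (1.16 to 1.38) lower than with CCCP alone. Against DHA, the same direction held for ANKRD1 and THBS1 at 2-fold, where 3.27% and 3.63% of all genes and 1.01% and 2.72% of the well-expressed genes passed, and CYR61 was 1.64-fold (1.62 to 1.67) higher. The members' median was 0.08. No target gene passed 4-fold in either, where 0.709% and 0.731% of all genes did against CCCP and 0.724% and 0.358% against DHA. These comparisons share libraries with those above and are not independent of them.

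The departure from additivity is the log2 ratio with both compounds minus the sum of the single log2 ratios. It was below 0 in 9 of the 10 genes, with a median of -0.41 where all genes had -0.003. No target gene departed by 1 or more in size, against 3.77% of all genes upward and 4.42% downward, and 0.607% and 1.89% of the well-expressed genes. By 1.5-fold 4 departed downward, where 8.67% of all genes did upward and 11.2% downward. TGFB2 departed by -0.96 (-1.09 to -0.82), AMOTL2 by -0.86 (-0.93 to -0.78), THBS1 by -0.76 (-0.78 to -0.73) and CYR61 by -0.62 (-0.65 to -0.59), with approximate 95% intervals for counting error. The sense differed between these genes. TGFB2, AMOTL2 and CYR61 were less far above control than the sum, and THBS1 was further below control than the sum. ANKRD1, at 0.19 (0.05 to 0.33), and AXL, at -0.07 (-0.09 to -0.04), lay near the sum. Scaled to equal FPKM totals, which put the median departure of all genes at 0.16, the departures of CTGF, AMOTL1 and AXL turned to 0.01, 0.00086 and 0.11. With that scaling CYR61 and THBS1 fell short of a 1.5-fold departure, while TGFB2 and AMOTL2 still passed it.

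**Figure D4:**
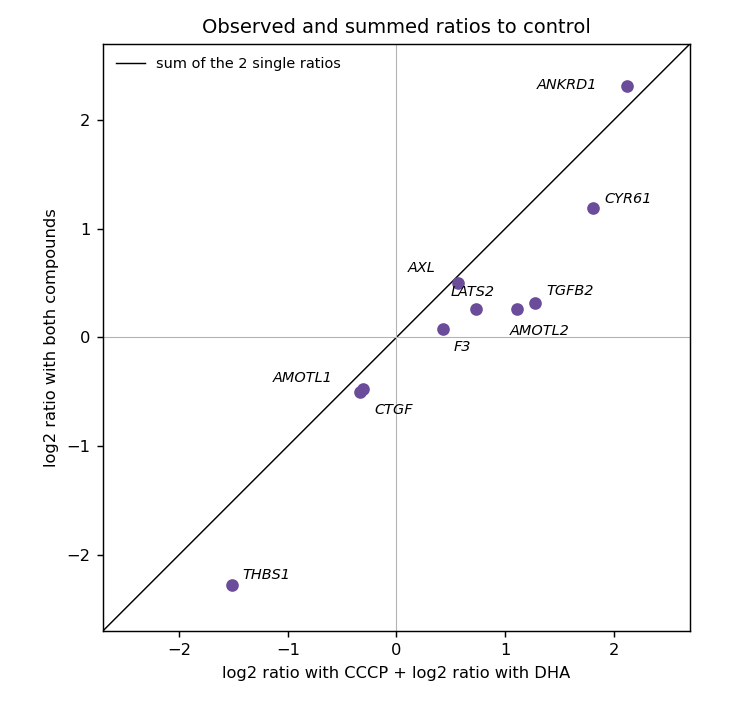
Log2 ratio to control with both compounds (vertical) against the sum of the log2 ratios with CCCP and with DHA (horizontal), 1 point per target gene, with the line of equality. TGFB2, AMOTL2 and CYR61 lie below the line on the side above control, THBS1 lies below it on the side under control, and ANKRD1 lies just above it.

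The 2 libraries with a compound were tested against the 2 without it by limma-trend, with both compounds as additive terms and 1 degree of freedom left, adjusted by Benjamini-Hochberg over all 13678 genes. No target gene passed an adjusted p of 0.05 for CCCP, where 0.0366% of all genes rose and 0.0585% fell, or for DHA, where 0.095% rose and 0.00731% fell. At an unadjusted p of 0.05 in limma, 4 of the 10 passed for CCCP (CYR61, ANKRD1, TGFB2 and THBS1) and 2 for DHA (ANKRD1 and THBS1), where 6.88% of all genes passed upward and 7.59% downward for CCCP and 5.51% and 6.62% for DHA. Because the genes were chosen with earlier results of these data known, these counts are not independent of the choice. For CCCP, ANKRD1 had a log2 difference of 1.32 (SE 0.16, limma adjusted p 0.0621), THBS1 -1.44 (SE 0.25, adjusted p 0.105) and CYR61 1.03 (SE 0.26, adjusted p 0.182), and both pairs of libraries gave the same sign for each. For DHA, ANKRD1 had 0.996 (SE 0.16, limma adjusted p 0.153) and THBS1 -0.84 (SE 0.25, adjusted p 0.323), again with the same sign in both pairs. TGFB2 had a limma adjusted p of 0.342 and the other 6 genes 0.376 to 0.667 for CCCP. Fitted on the well-expressed genes alone, limma adjusted p for CCCP was 0.0178 for ANKRD1 and 0.0498 for THBS1, where 0.429% of genes rose and 0.888% fell, and none of the 10 passed for DHA, where 0.444% rose and 0.0592% fell. Scaled to equal FPKM totals, CYR61, ANKRD1 and THBS1 passed for CCCP and ANKRD1 and THBS1 for DHA, where 1.35% of all genes rose and 2.36% fell for CCCP and 1.3% rose and 1.65% fell for DHA. Without a filter on low values limma adjusted p was 0.63 for ANKRD1 and CCCP.

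Other genes of the pathway were taken from lists. Of 24 further YAP and TEAD targets, 23 were measured and their median log2 ratios were 0.11 with CCCP, 0.05 with DHA and 0.11 with both, with 15, 14 and 14 of 23 above control. GADD45A, a stress-induced growth arrest gene, was 2-fold higher with CCCP and with both, at 58.1 FPKM with CCCP, 42.6 with DHA and 103 with both, against 26.7 in control. With both compounds BIRC5, the mitotic survival gene survivin, was 3.37-fold (3.11 to 3.66) lower and EDN1, the endothelin 1 precursor gene, 3.42-fold (2.74 to 4.29) lower. DLC1 was 1.88-fold (1.79 to 1.98) higher with both. CCDC80, a secreted matrix protein gene, was at 272 FPKM with CCCP, 145 with DHA and 128 with both, against 169 in control.

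The transcripts of YAP, TAZ, the TEAD factors and their VGLL cofactors ranged on the log2 scale from -0.34 to 0.65 with CCCP, -0.46 to 0.33 with DHA and -0.66 to 0.56 with both. None of the 8 measured genes reached 2-fold against control, where 3.21% of all genes were higher and 2.32% lower with CCCP, 2.0% and 1.86% with DHA, and 4.52% and 5.44% with both, so a count of 0 among 8 is near the background. Their medians were 0.06 with CCCP, 0.06 with DHA and 0.04 with both. YAP1 itself was at 22.4 FPKM with CCCP, 23.5 with DHA and 24.7 with both, against 22.4 in control. WWTR1, which encodes TAZ, was at 13.2 FPKM with CCCP, 13.5 with DHA and 9.84 with both, against 15.8 in control. TEAD2 had a log2 ratio of -0.63 and TEAD4 of 0.56 with both. VGLL3, a TEAD cofactor, had a log2 ratio of 0.65 with CCCP and 0.10 with both. These are RNA levels, and the activity of YAP depends on phosphorylation and location, which were not measured.

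Of 26 Hippo kinases and upstream regulators 25 were measured. None reached 2-fold against control, beside the same shares of all genes (3.21% and 2.32% with CCCP, 2.0% and 1.86% with DHA, 4.52% and 5.44% with both), under which few of 25 genes would pass. The list had medians of 0.00, -0.02 and -0.12 for CCCP, DHA and both. AJUBA, a LIM protein that inhibits LATS, had the largest ratio, at 37.5 FPKM with CCCP, 36.04 with DHA and 49.9 with both, against 27.2 in control. RASSF1, a scaffold of the MST kinases, had a log2 ratio of -0.77 with both, and the atypical cadherin FAT4 and the LATS cofactor MOB1B were at 0.54 and 0.42 with CCCP.

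Of 22 ligands and receptors of the target proteins 19 were measured, and their median log2 ratio was 0.03 for CCCP, -0.08 for DHA and -0.27 for the combination, where that of all genes was 0.01. With both compounds 12 of the 19 lay below control and 7 above it, and 2 were at least 2-fold lower, beside 5.44% of all genes. GAS6, the ligand of AXL, was at 136 FPKM with CCCP, 138 with DHA and 60.5 with both, against 174 in control, a 2.87-fold (2.79 to 2.95) lower level with both. ITGB5, the beta subunit of an integrin that binds CYR61, was 2.34-fold (2.28 to 2.4) lower with both. The protease receptor genes F2R and F2RL1 had log2 ratios of -0.86 and -0.73 with both.

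**Figure D5:**
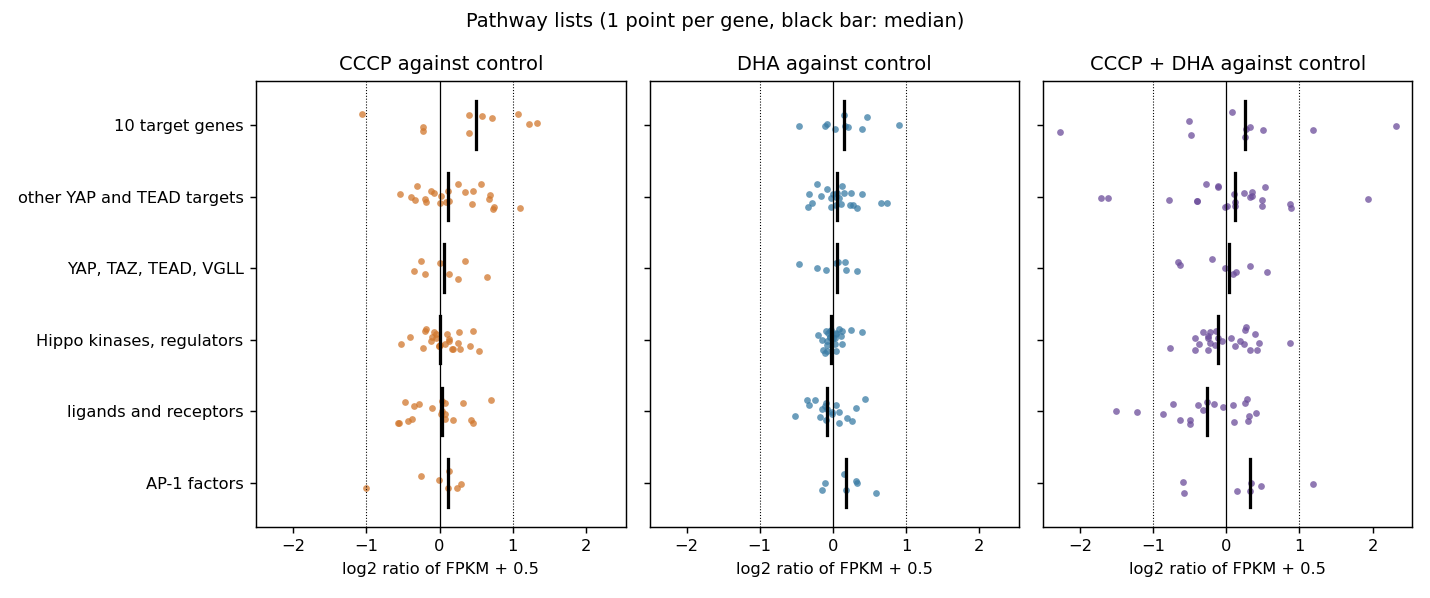
Log2 ratios of FPKM + 0.5 to control for the measured genes of 6 lists with CCCP, DHA and CCCP + DHA, with 1 point per gene, a black bar at the list's median and dotted lines at 2-fold. The target genes spread from -2.28 to 2.31 with both compounds, whereas the genes of the YAP, TAZ, TEAD and VGLL list and of the Hippo list all stay inside 2-fold.

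Transcripts that decay fast or follow handling were listed as well, since several target genes respond early to serum and stress. Of 9 AP-1 genes 7 were measured, with medians of 0.12, 0.18 and 0.33 for CCCP, DHA and both. JUNB was 2.04-fold (1.82 to 2.28) lower with CCCP, MAFF 2.55-fold (2.19 to 2.98) higher with both, and FOSL2 and JUN had log2 ratios of -0.59 and 0.47 with both. Of 21 short-lived transcripts 17 were measured, with medians of 0.12, 0.08 and 0.36. With both compounds ATF3 and DUSP1 were 6.59-fold (5.18 to 8.49) and 2.36-fold (2.27 to 2.45) higher, and PLK2 and EGR1 were 2.13-fold (2.07 to 2.19) and 2.71-fold (1.87 to 3.99) lower. KLF2 had a log2 ratio of 1.40 in the combination against CCCP. The part of these transcripts in the ratios of the target genes was not tested.

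The genes whose 3 ratios to control were most like those of a target gene were sought among the well-expressed genes, by Euclidean distance over the 4 libraries. For CYR61 they were SCG5, IL32, SLC20A2, CD55 and MIR6835, at distances of 0.19 to 0.41, and MIR6835 rested on 5 to 11 reads. For ANKRD1 they were FTH1P8, NQO1, STC2, ERICH2 and AC089983.1, at 0.12 to 0.38, of which FTH1P8 is a pseudogene that may share reads with ferritin. For CTGF they were CHMP1A, MAML2, GGA2, AP1B1 and CLIC4, at 0.02 to 0.03. CLIC4, a chloride channel family gene, was at 316 FPKM with CCCP, 332 with DHA and 253 with both, against 364 in control.

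The library kit does not mark strand, so reads of overlapping antisense genes cannot be told apart from those of the target genes. Exons of CTGF, AMOTL1, AMOTL2, AXL, THBS1 and TGFB2 share bases with other genes. The most reads of such a gene were 61 in AC011510.1, which shares 67 bases with AXL, beside 42916 reads of AXL in the same library with CCCP. TGFB2-OT1, on the same strand, shares all 1371 of its exonic bases with TGFB2. It had 0 reads in every library, where TGFB2 had 1534 to 2804. Reads counted for an overlapping gene thus do not show how many fell on shared bases, and how such reads were assigned is not given.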

How the data were processed

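The authors deposited FPKM per gene for each library, per the file headers. Per the labels' protocols, an Illumina TruSeq kit was used on 1 ug of RNA. Not given in the sources used here were aligner, counting tool and build. The 58735 gene identifiers matched GENCODE 29 (GRCh38), which gave coordinates and exon lengths. FPKM times exon length came out as whole reads for 100% of values above 0 (tolerance 0.01 reads), which gave reads for depth and exact Clopper-Pearson intervals. The implied library sizes matched median-of-ratios size factors, so the deposited FPKM were already scaled between libraries.

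Ratios used log2(FPKM + 0.5), which understates changes of low genes, over the 13678 genes that reached 1 FPKM anywhere. The 5 comparisons of 2 libraries had no test. The additive limma-trend fit takes the departure from additivity as spread. Its code was tested on simulated data with additive changes larger than most seen in these genes, which does not measure its power at their size. Nothing says the libraries came from separate cultures.

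The members and lists were chosen with earlier results of these data known. Named genes were all members, up to 4 genes per list with the largest ratio to control and a maximum of at least 1 FPKM, any list gene past 2-fold, and 5 genes of like pattern. YAP1, MIR6827, AC037198.1, TGFB2-OT1 and TGFB2-AS1 were named after their values were seen. Alternatives were pseudocounts of 0.1 and 1, other filters, rescaling, size rules of 1.5-fold and 4-fold, and limma without trend. Python 3.11.15 (pandas 2.3.3, numpy 2.4.6, matplotlib 3.10.9, scipy 1.17.1) and limma 3.58.1 in R 4.3.3 were used. Fits without 1 library were left out, having no residual degrees of freedom.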

Additional observations from a re-analysis of the deposited data

Results flagged for a closer look

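For some target genes the difference with one compound had opposite signs with and without the other compound, with counting intervals that excluded 1 on both sides. The difference was not tested, since each group is 1 library. With DHA added to CCCP-treated cells, log2 ratios were -0.75 in TGFB2, -0.45 in AMOTL2, -0.32 in LATS2, -0.32 in F3 and -0.15 in CYR61, whereas with DHA alone against control they were 0.21, 0.40, 0.15, 0.03 and 0.47. The gaps, which are by construction the departures from additivity, were -0.96, -0.86, -0.47, -0.35 and -0.62 in the same order of genes. With CCCP added to DHA-treated cells AMOTL2 was at -0.14, against 0.71 with CCCP alone, and its gap is by construction also -0.86. The sign of F3 with DHA alone turned to -0.07 when libraries were scaled to equal FPKM totals.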

How the results depend on the processing

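No paired analysis was possible because each group has 1 library. No called log2 ratio of a target gene changed sign under any pseudocount, filter or scaling tried, and of the smaller ones 4 did, all with equal FPKM totals: F3 with DHA and the departures of CTGF, AMOTL1 and AXL. TGFB2 lost its 2-fold call with CCCP when scaled to equal FPKM totals. Under the 4-fold rule 0 target genes passed for CCCP against control and for the combination against CCCP and against DHA. Under the 1.5-fold rule 1 passed for DHA against control and 4 for the departure from additivity, all 4 downward. Of these 4, CYR61 and THBS1 fell short of 1.5-fold when scaled to equal FPKM totals. Scaled to equal FPKM totals, the members' median log2 ratios were 0.38 for CCCP, 0.061 for DHA, -0.22 for the combination against CCCP, 0.15 for the combination against DHA and -0.23 for the departure, and medians of all genes moved with them. In the additive limma fit 2 target genes passed for CCCP with a mean of at least 5 FPKM, where fewer genes were adjusted over, and 0 for DHA. With equal FPKM totals 3 passed for CCCP and 2 for DHA, among 508 and 404 genes in all, and the cause was not tested. Without the trend, and without a filter, limma called 0 genes of any kind for either compound, with 720 up and 776 down for CCCP at an unadjusted p of 0.05 in limma without the trend and 1082 up and 1129 down without the filter. Depth limits the target genes little, since the fewest reads of any of them in a library were 872, but no group has replicates.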

Other observations

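TGFB2-AS1, an antisense gene beside TGFB2 named after its values were seen, was above control in each treated library. It was at 13.8 FPKM with CCCP, 10.2 with DHA and 12.2 with both, against 6.92 in control, on 128, 98, 117 and 75 reads. It was 1.99-fold (1.48 to 2.68) higher with CCCP, 1.48-fold (1.08 to 2.02) with DHA and 1.76-fold (1.31 to 2.38) with both. In GENCODE 29 it lies on chromosome 1 from 218344196 to 218345678 on the minus strand, 556 bases away from TGFB2, whereas the RefSeq promoter window of TGFB2 lies inside it. With a kit that does not mark strand, its reads cannot be told apart from those of a TGFB2 transcript that starts there.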
